A study of Mus musculus with 6 samples.

Results

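Genes that mark circulating monocytes were followed in RNA of F4/80+ cells from mouse liver tumours: 6 used for classical monocytes (Ly6c2, F13a1, Fn1, Vcan, Chil3 and Plac8) and 4 used for patrolling monocytes (Cx3cr1, Ace, Treml4 and Spn). They were chosen by symbol, from what is known of these cells, and make up 10 of the 55401 genes listed. All 10 passed the filter on low counts, which left 18277 genes for testing. The tumours were grown from Hepa 1-6, an established mouse hepatoma line, placed in the liver, and the F4/80+ cells were collected on day 14. The control group (3 libraries, labelled WT Control) came from tumours of control Hepa 1-6 cells. The Sms-OE group (3 libraries) came from tumours of Hepa 1-6 cells made to overexpress Sms, the gene of spermine synthase, with a lentivirus. Neither group had any further treatment, and the engineered change was in tumour cells, while the RNA read was that of F4/80+ cells. The labels give no mouse strain, age or sex, do not say what the control cells carried, and do not tell if different animals gave the 3 libraries of a group. If they did not, p-values reflect technical spread alone.

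Mouse monocytes leave the bone marrow as classical cells, which carry much Ly6C and the chemokine receptor CCR2 and enter inflamed tissue, where many become macrophages. Some convert in the blood to patrolling cells with little Ly6C and much CX3CR1, which crawl along the vessel wall and depend on the nuclear receptor NR4A1. In the liver and in liver tumours, recruited classical monocytes are a source of macrophages beside the resident Kupffer cells. Most of these markers are shared with other cells: F13a1 with megakaryocytes and some tissue macrophages, Fn1 with hepatocytes, fibroblasts and macrophages, Chil3 and Plac8 with cells of the neutrophil lineage, Ace with endothelium, and Spn with T cells. F4/80 selects macrophages, and no step described in the labels selected monocytes, so each value is the RNA of a mixed population.

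Ly6c2 and Chil3 have close copies in the genome, so their counts depend on how reads were shared between copies. Ly6c2 lies on chromosome 15 (GRCm38, 75108158 to 75111970, minus strand) and Ly6c1 nearby. Their coding sequences, 396 bases each, were 97.7% identical, with 9 different bases and a longest shared run of 188 bases. Chil3 (chromosome 3, 106147554 to 106167564, minus strand) and Chil4 were 94.4% identical over coding sequences of 1197 and 1209 bases, with a longest shared run of 136. The opening 150 coding bases of each, from GENCODE M21 on GRCm38, are shown to let the likeness of the copies be seen, with the bases that differ in capitals.
Ly6c2: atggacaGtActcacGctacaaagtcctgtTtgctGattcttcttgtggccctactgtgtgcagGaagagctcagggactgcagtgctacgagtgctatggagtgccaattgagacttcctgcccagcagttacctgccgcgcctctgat
Ly6c1: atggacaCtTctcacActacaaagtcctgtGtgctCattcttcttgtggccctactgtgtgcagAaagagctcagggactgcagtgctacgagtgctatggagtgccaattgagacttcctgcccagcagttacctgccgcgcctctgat
Chil3: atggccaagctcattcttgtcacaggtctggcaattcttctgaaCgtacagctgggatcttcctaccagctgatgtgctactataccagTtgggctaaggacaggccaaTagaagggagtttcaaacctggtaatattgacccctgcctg
Chil4: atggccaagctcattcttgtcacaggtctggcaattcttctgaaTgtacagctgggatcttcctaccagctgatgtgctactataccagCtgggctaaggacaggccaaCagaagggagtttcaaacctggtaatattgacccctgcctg
These stretches hold 6 of the 9 differences between the Ly6c genes and 3 of the 68 between the Chil genes (gaps in the alignment included), whose other differences lie further along. Of all 50-base windows of the Ly6c2 transcript 33% also occurred in another gene, nearly all of these in Ly6c1 (32.6%). For Chil3 the share was 29.4%, with 18.5% in Chil4, for Cx3cr1 0.27%, and for the other 7 markers 0. The counts given to Ly6c1 were 5.19% to 6.32% of those given to Ly6c2 in the 6 libraries, and those of Chil4 at most 0.138% of those of Chil3. The Ly6c1 to Ly6c2 ratio of the Sms-OE libraries (0.0546, 0.0519 and 0.0531) overlapped that of the controls (0.0632, 0.0520 and 0.0545).

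The 250 bases before the start of transcription are shown for 3 classical markers that behaved differently: F13a1, which rose, Plac8, which fell, and Ly6c2, which did not pass the test. Sequences are from RefSeq on GRCm38.p6, minus strand, written 5′ to 3′: chr13:37050245-37050494 for F13a1, chr5:100572206-100572455 for Plac8 and chr15:75111972-75112221 for Ly6c2. Capitals mark matches to any of 5 motifs searched on both strands.
F13a1: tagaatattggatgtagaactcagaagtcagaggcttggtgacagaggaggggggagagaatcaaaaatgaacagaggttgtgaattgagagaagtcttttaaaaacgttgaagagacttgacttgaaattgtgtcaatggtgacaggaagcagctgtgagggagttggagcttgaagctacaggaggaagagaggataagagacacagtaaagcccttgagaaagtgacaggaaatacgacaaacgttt
Plac8: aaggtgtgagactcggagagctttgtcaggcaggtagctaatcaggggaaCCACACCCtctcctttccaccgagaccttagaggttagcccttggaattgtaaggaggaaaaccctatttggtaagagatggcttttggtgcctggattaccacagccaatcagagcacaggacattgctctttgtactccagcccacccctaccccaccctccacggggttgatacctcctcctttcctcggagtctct
Ly6c2: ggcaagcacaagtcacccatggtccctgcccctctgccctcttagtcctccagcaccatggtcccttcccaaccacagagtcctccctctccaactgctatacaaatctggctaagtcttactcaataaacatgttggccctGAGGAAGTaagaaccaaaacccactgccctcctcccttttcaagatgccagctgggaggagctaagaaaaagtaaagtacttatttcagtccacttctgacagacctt
The motifs were GAGGAAGT for PU.1, TTGCNNAA for C/EBP, AAAGGTCA for NR4A, CCACACCC for Krüppel-like factors and TGANTCA for AP-1, in windows of 300 bases that reach 50 bases past the start. None of these motifs overlapped another in the matches found. A window was found for 9 of the 10 genes, all but Fn1. Ly6c2 held PU.1 letters at position -108 and again at 26 past the start, and Plac8 held the Krüppel-like letters at -200. The other 7 windows, F13a1 among them, held none of the 5 motifs. Of 32851 windows of all genes 3.2% held the PU.1 letters, 10.8% the C/EBP letters, 1.51% the NR4A letters, 3.56% the Krüppel-like letters and 7.81% the AP-1 letters. A match is a description of the letters, and the markers' windows are too few to compare with these shares.

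Library totals ran from 49833764 to 58154006 estimated counts. Levels are in CPM, that is counts scaled to library size and adjusted by TMM, a factor that aligns the bulk of genes. Haemoglobin RNA set 2 libraries apart: Sms-OE replicates 2 and 3 held 4980 and 4930 CPM, against 42.8 to 213 in the other 4. Without both, the Sms-OE group is replicate 1 alone, so for that setting log2 fold changes are given with no test. Sms itself was 26.0, 28.3 and 26.2 CPM in controls and 32.9, 33.2 and 33.2 in Sms-OE cells, 1.23-fold higher (edgeR adjusted p = 0.0382). The macrophage markers summed to between 7000 and 8120 CPM in every library, and none of the 12 was at 0 throughout. Single markers moved within that sum. At an edgeR adjusted p under 0.05, 4 of the 12 were lower in Sms-OE libraries, 1 was higher and 7 did not pass. The lower ones were C1qa, C1qb, C1qc and Cd68 (log2 fold changes -0.45, -0.66, -0.51 and -0.35), and the higher was Cd14 (0.73). Neutrophil markers summed to 0.902 to 1.26 times the macrophage sum, so these libraries also held much neutrophil-type RNA, in both groups.

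Of the 10 markers 3 rose in Sms-OE libraries, F13a1, Fn1 and Cx3cr1, 1 fell, Plac8, and 6 did not pass the test at an adjusted p of 0.05. The classical markers moved in both directions, with 2 higher and 1 lower of 6 and a median log2 fold change of 0.19. The patrolling markers had 1 higher and 0 lower of 4, with a median of 0.28. Over all genes tested 26.9% were called, 12.5% higher and 14.3% lower, with a median of 0.00. The groups did not overlap in F13a1 and Fn1, where all Sms-OE values were above all controls, and in Plac8, where all were below. Over all genes 20.8% were fully above and 23.3% fully below. With 10 genes, chosen with results of these data known, nothing particular to the set is read from these counts. The number of genes called depended on the libraries. It was 2293 higher and 2615 lower with all 6, and 1366 and 1684 without control replicate 2. Without control replicate 3 there were 1498 higher. In bulk RNA, fewer cells of a type and less RNA per cell cannot be told apart.

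**Figure D1:**
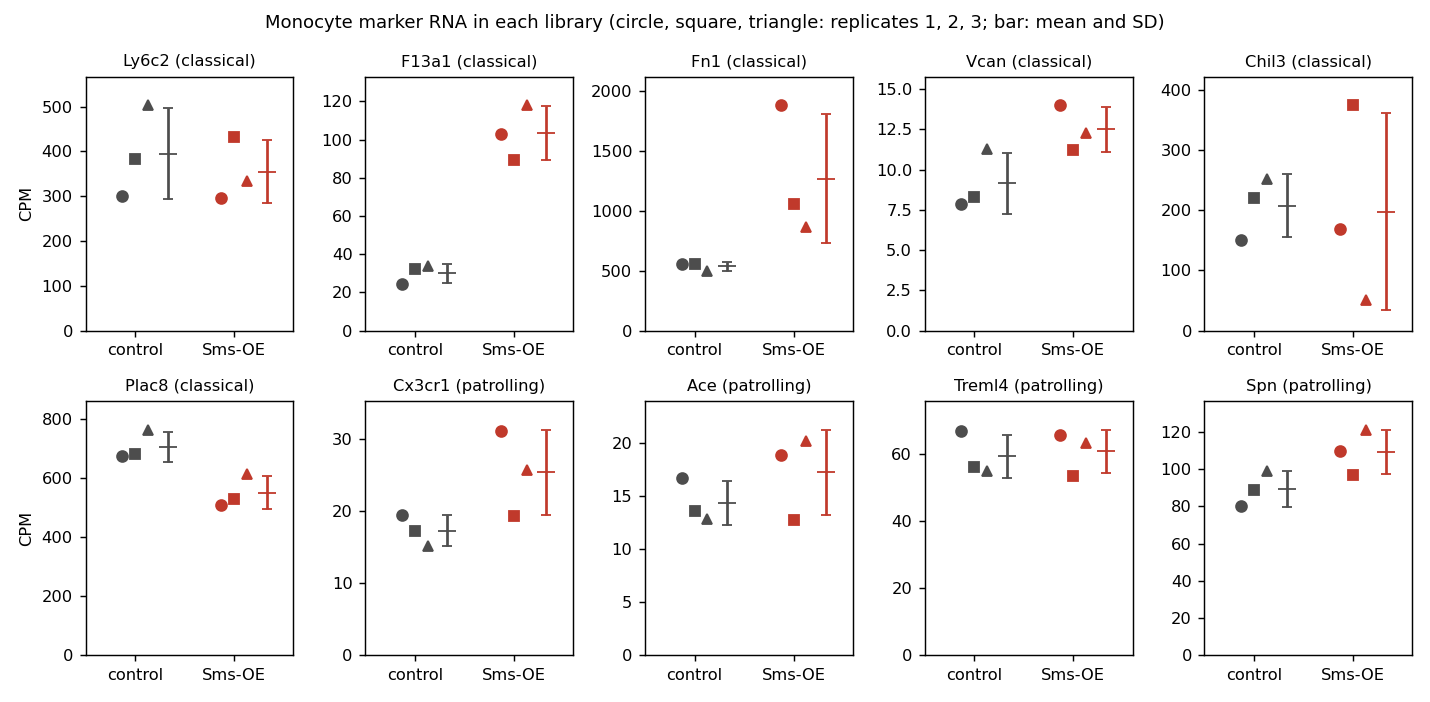
CPM of each of the 10 markers in each library, with controls in grey and Sms-OE in red, symbols for replicates 1 to 3, and the mean with its SD beside them. F13a1 and Fn1 lie higher in every Sms-OE library than in any control, Plac8 lies lower, and the Sms-OE values of Chil3 run from 51.0 to 374.

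**Figure D2:**
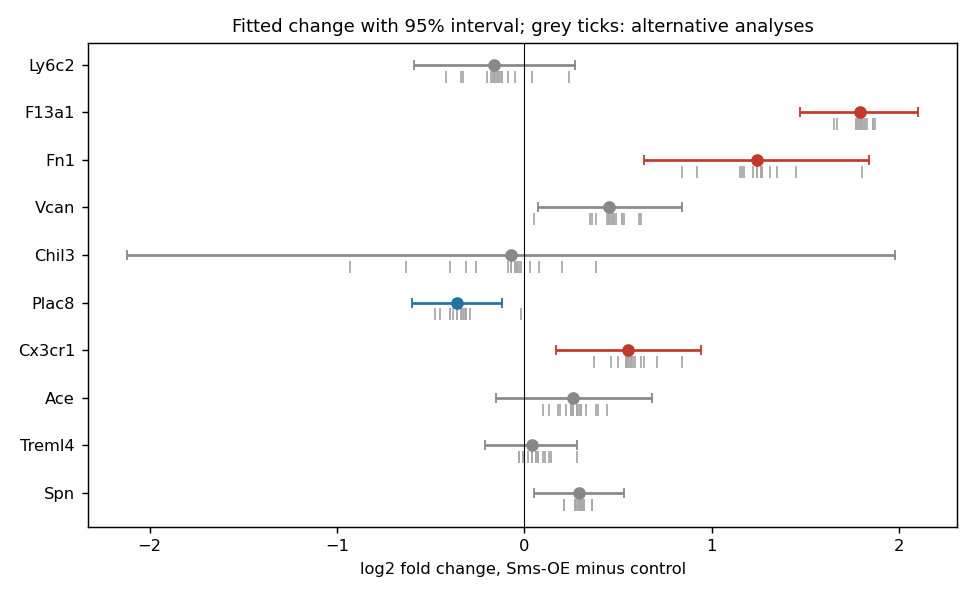
Fitted log2 fold change of each marker, Sms-OE minus control, with its 95% interval, in red where higher, blue where lower and grey where the test was not passed, and grey ticks for the alternative analyses other than the fit with a hepatocyte covariate. F13a1 at 1.79 and Fn1 at 1.24 keep all their ticks above 0, while the ticks of Ly6c2, Chil3 and Treml4 lie on both sides of 0.

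Among classical markers of the cell surface, Ly6c2 encodes the Ly6C antigen by which these cells are sorted. Its level was 301, 382 and 503 CPM in the controls and 297, 433 and 333 CPM in the Sms-OE libraries. The groups overlapped throughout, and the lowest value of each group was nearly equal. The means were 395 ± 100 and 354 ± 70 (SD, n = 3 each), with a log2 fold change of -0.16 ± 0.19 (SE, 95% interval -0.59 to 0.27, edgeR adjusted p = 0.593). A fall to 0.664 times or a rise to 1.21 times the control level both lie within that interval. The sign was not fixed by the data: the estimate was 0.04 without control replicate 3 and 0.24 with offsets for transcript length and GC.

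Of the 3 classical markers of clotting and matrix, F13a1 and Fn1 rose and Vcan did not pass. F13a1, on chromosome 13 (36867178 to 37050244, minus strand), encodes the A chain of clotting factor XIII, which cross-links fibrin and is made by monocytes and macrophages. It was 24.3, 32.2 and 33.7 CPM in controls and 103, 89.4 and 118 CPM in Sms-OE libraries. Every Sms-OE value was far above the highest control. The mean went from 30.0 ± 5.0 to 104 ± 14 (SD, n = 3 each), a 3.45-fold rise (95% interval 2.77 to 4.29), with a log2 fold change of 1.79 ± 0.14 (SE, edgeR adjusted p = 0.00012). It was between 1.65 and 1.87 when any 1 library was left out. Platelet markers, which share F13a1 through the megakaryocyte, summed to 26.2 to 35.3 CPM in controls and 47.3 to 68.4 in Sms-OE libraries. Of these markers Pf4, a platelet chemokine also made by some macrophages, was 7.85, 8.81 and 9.60 CPM against 41.6, 33 and 16.4, while Itga2b, a defining platelet integrin, was 14.0 to 20.7 against 18.7 to 26.6 and did not pass (edgeR adjusted p = 0.13). The part of platelet RNA in the F13a1 rise was not tested.

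Fn1, on chromosome 1 (71585520 to 71653200, minus strand), encodes fibronectin, a matrix glycoprotein bound by integrins. It was 557, 559 and 494 CPM in controls and 1880, 1060 and 866 CPM in Sms-OE libraries. All 3 Sms-OE values were above the controls and spread widely, with replicate 1 the highest. The mean rose from 537 ± 37 to 1270 ± 540 (SD, n = 3 each), 2.36-fold (95% interval 1.56 to 3.59), with a log2 fold change of 1.24 ± 0.26 (SE, edgeR adjusted p = 0.0108). The log2 fold change was 0.84 without Sms-OE replicate 1, where the test was passed (edgeR adjusted p = 0.00263). It was 1.80 without both haemoglobin-rich libraries, where Sms-OE replicate 1 stood alone. Hepatocytes also make fibronectin, and the hepatocyte and hepatoma markers summed to less in Sms-OE libraries (435 to 660 CPM) than in controls (815 to 1020). Stellate cell and fibroblast markers summed to 110 to 150 CPM in Sms-OE libraries against 79.6 to 96.9 in controls. Much of that sum was Dcn, at 64.5 to 104 CPM in Sms-OE libraries against 36.1 to 53.1 in controls. Of the 8 genes tested in this list 2 rose and 6 did not pass. The part of stellate cells and fibroblasts in the Fn1 rise was not tested.

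Vcan, on chromosome 13 (89655312 to 89742509, minus strand), encodes versican, a large proteoglycan that binds hyaluronan. Its level was 7.86, 8.27 and 11.3 CPM in controls and 14.0, 11.2 and 12.3 CPM in Sms-OE libraries. The groups touched, since control replicate 3 was just above Sms-OE replicate 2. The log2 fold change of 0.45 ± 0.17 (SE, 95% interval 0.07 to 0.84) did not pass after adjustment (edgeR adjusted p = 0.0794). It was 0.05 with offsets for length and GC (edgeR adjusted p = 0.882), and passed without control replicate 3 (0.62, edgeR adjusted p = 0.0363).

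Chil3, which encodes the secreted chitinase-like lectin Ym1, was the least reproducible marker. It was 150, 220 and 252 CPM in controls and 168, 374 and 51.0 CPM in Sms-OE libraries. The Sms-OE group held both the highest and the lowest value of all 6 libraries. The means were 208 ± 52 and 198 ± 160 (SD, n = 3 each), and the log2 fold change of -0.07 ± 0.77 (SE) had a 95% interval from -2.12 to 1.98 (edgeR adjusted p = 0.962), so that a 3.96-fold rise would not have been told from no change. In Sms-OE replicate 3, where Chil3 was lowest, the 14 neutrophil markers summed to 6310 CPM, the lowest of the 6 libraries, and 7 of the 14 had their lowest value there. Among these 7, Ngp was 37.7 CPM against 103 to 121 in the other 5 libraries, Camp 8.89 against 18.8 to 32.1, and Ltf 43.0 against 96.1 to 114. Other granule genes, Mpo and Elane, did not have their lowest value there. Mpo was 11 CPM there, 14.4 and 11.9 in the other Sms-OE libraries and 2.31 to 4.93 in controls. Elane was 3.17 there, 3.74 and 3.13 in the other Sms-OE libraries and 0.750 to 1.84 in controls. Both were higher in every Sms-OE library than in any control. These genes were picked from the list after their values were seen, and their part in the Chil3 spread was not tested. Without that library the Chil3 log2 fold change was 0.38, and the test was not passed.

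Plac8, on chromosome 5 (100553725 to 100572245, minus strand), encodes a small cysteine-rich protein found inside many myeloid cells. It was 674, 682 and 765 CPM in controls and 508, 531 and 614 CPM in Sms-OE libraries. All Sms-OE values were below all controls, by a small margin between the nearest. The mean fell from 707 ± 50 to 551 ± 56 (SD, n = 3 each), 1.28-fold lower, with a log2 fold change of -0.36 ± 0.11 (SE, 95% interval -0.60 to -0.12, edgeR adjusted p = 0.0317). This call was easily lost. With offsets for transcript length and GC the log2 fold change was -0.02 (edgeR adjusted p = 0.928). Leaving out any 1 library except Sms-OE replicate 3 gave adjusted p values of 0.052 to 0.108 in edgeR. Without both haemoglobin-rich libraries the log2 fold change was -0.48.

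Of the 4 patrolling markers the receptor Cx3cr1 passed the test. Cx3cr1, on chromosome 9 (119901616 to 120069879, minus strand), encodes the receptor for fractalkine that patrolling cells carry. It was 19.5, 17.3 and 15.1 CPM in controls and 31.2, 19.3 and 25.7 CPM in Sms-OE libraries. The groups overlapped by a narrow margin, control replicate 1 lying just above Sms-OE replicate 2. The mean rose from 17.3 ± 2.2 to 25.4 ± 5.9 (SD, n = 3 each), 1.47-fold (95% interval 1.12 to 1.92), with a log2 fold change of 0.55 ± 0.17 (SE, edgeR adjusted p = 0.0389). Leaving out any 1 library except Sms-OE replicate 2 gave edgeR adjusted p values of 0.0509 to 0.14. Without both haemoglobin-rich libraries, that is with Sms-OE replicate 1 alone, the log2 fold change was 0.84. Kupffer cell markers summed to 285 to 297 CPM in controls and 482 to 596 in Sms-OE libraries, and 6 of the 7 rose. Among them the lectin Clec4f, was 25, 23.5 and 26.1 CPM against 56.9, 127 and 86.0. Their part in the Cx3cr1 rise was not tested. The annotated span of Cx3cr1 crosses 9 other genes, but shares exon bases with 1 of them, an antisense transcript of at most 5.09% of its level. Among the 9, Csrnp1 lies on the same strand and was at 727 to 1240 CPM, far above Cx3cr1, with no shared exon bases. Whether reads of Csrnp1 were counted for Cx3cr1 was not tested.

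Ace, on chromosome 11 (105967945 to 105989964, plus strand), encodes angiotensin-converting enzyme. Its level was 16.7, 13.6 and 12.8 CPM in controls and 18.9, 12.7 and 20.2 CPM in Sms-OE libraries. Sms-OE replicate 2 lay below all controls and the other 2 above them. The log2 fold change was 0.26 ± 0.19 (SE, 95% interval -0.15 to 0.68, edgeR adjusted p = 0.33). Endothelial markers, of cells that also express Ace, summed to 148 to 169 CPM in controls and 120 to 163 in Sms-OE libraries. Most of that sum was Pecam1, at 101 to 110 CPM in controls and 92.7 to 119 in Sms-OE libraries. Of the 9 endothelial markers 5 fell and 1 rose, with a median log2 fold change of -0.89. Their part in the level of Ace was not tested.

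Treml4, on chromosome 17 (48264295 to 48275360, plus strand), encodes a receptor that binds dying cells. It was 66.8, 56.1 and 55.0 CPM in controls and 65.7, 53.5 and 63.3 CPM in Sms-OE libraries. The values of the groups interleaved. The log2 fold change was 0.04 ± 0.11 (SE, 95% interval -0.21 to 0.28, edgeR adjusted p = 0.842), so that a rise past 1.22-fold lies outside the interval.

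Spn, on chromosome 7 (127132232 to 127137823, minus strand), encodes CD43, the sialic acid-rich surface protein by which patrolling cells are sorted. It was 80.1, 89.0 and 99.2 CPM in controls and 110, 97.0 and 121 CPM in Sms-OE libraries. The highest control lay above the lowest Sms-OE value. The log2 fold change was 0.29 ± 0.11 (SE, 95% interval 0.05 to 0.53), and the test was not passed (edgeR adjusted p = 0.0741), although it was passed with DESeq2 (adjusted p = 0.0457) and limma-voom (adjusted p = 0.0491). Lymphocyte markers, of cells that also carry CD43, summed to 244 to 354 CPM in controls and 269 to 438 in Sms-OE libraries.

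Per kilobase of the longest protein-coding transcript, the markers differed widely in level. In the controls Plac8 stood at 578 ± 41 CPM per kilobase, Ly6c2 at 481 ± 120, Chil3 at 135 ± 34 and Fn1 at 64.6 ± 4.4 (SD, n = 3 each). Treml4 (34.0), Spn (23.9), F13a1 (7.60), Cx3cr1 (3.85), Ace (2.93) and Vcan (0.735) followed. Neighbours in this order did not overlap between libraries, except Plac8 with Ly6c2 and Cx3cr1 with Ace. In the Sms-OE libraries Fn1 (153 ± 65) stood above Chil3 (129 ± 110) on the same scale and F13a1 was at 26.2 ± 3.7 (SD, n = 3 each). There Plac8 overlapped Ly6c2, Fn1 overlapped Chil3, Chil3 overlapped Treml4, Treml4 overlapped Spn, and Spn overlapped F13a1. The remaining neighbours did not overlap.

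**Figure D3:**
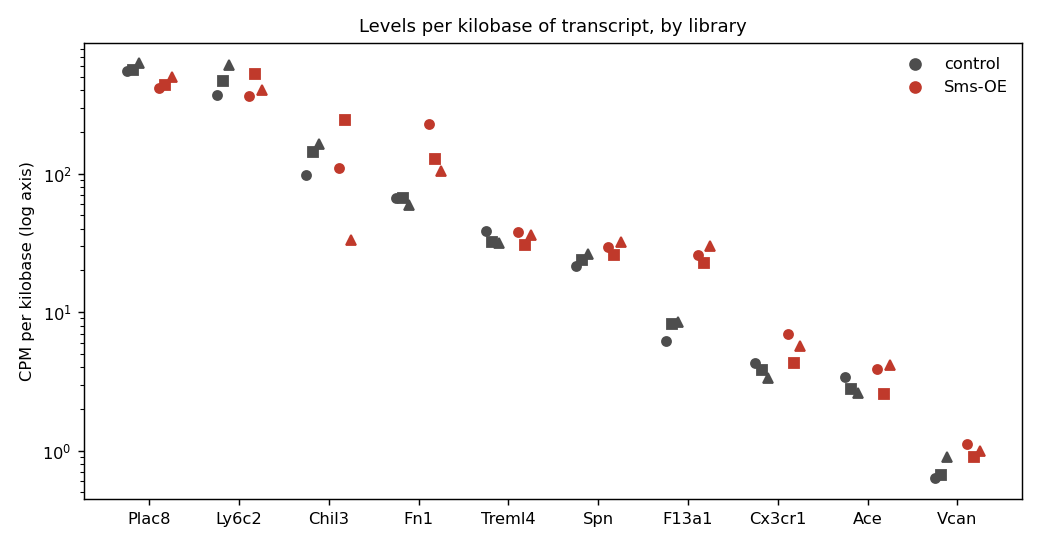
Level of each marker in each library, in CPM per kilobase of transcript on a log axis, controls in grey and Sms-OE in red, genes ordered by their control mean. Plac8 and Ly6c2 are the highest and Vcan the lowest in both groups, and F13a1 moves from 7.60 to 26.2.

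Of the classical markers, F13a1 and Fn1 rose relative to Ly6c2, while the ratios of Plac8 and Chil3 to Ly6c2 overlapped between groups. The ratio of F13a1 to Ly6c2 counts was 0.0806, 0.0843 and 0.0669 in controls and 0.347, 0.206 and 0.356 in Sms-OE libraries. That of Fn1 to Ly6c2 was 1.85, 1.46 and 0.983 against 6.35, 2.44 and 2.60. Both ratios separated the groups, as the levels of F13a1 and Fn1 did. The ratio of Plac8 to Ly6c2 was 2.24, 1.79 and 1.52 in controls and 1.71, 1.23 and 1.85 in Sms-OE libraries. For Chil3 to Ly6c2 it was 0.499, 0.576 and 0.502 against 0.567, 0.865 and 0.153. The ratio of Ly6c2 to Cx3cr1, the receptor and the antigen by which the monocyte classes are told apart, was 15.5, 22.1 and 33.3 in controls and 9.52, 22.4 and 13 in Sms-OE libraries, and overlapped.

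Of 16 other genes known for classical monocytes 4 fell, 1 rose and 11 did not pass, with a median log2 fold change of -0.20 beside 0.00 for all genes. Ccr2, the receptor that brings classical monocytes out of the marrow, was 232, 218 and 224 CPM in controls and 152, 109 and 116 in Sms-OE libraries, 1.79-fold lower (edgeR adjusted p = 0.00136). All Sms-OE values were well below the controls. Ly6a, or Sca-1, went from 242 to 158 CPM (log2 fold change -0.62, edgeR adjusted p = 0.00435) and its relative Ly6i from 68.4 to 41.6 CPM (-0.72, edgeR adjusted p = 0.00631). Cd14, the lipopolysaccharide co-receptor that macrophages also carry, rose 1.66-fold, from 819 to 832 CPM in controls to 1100 to 1720 in Sms-OE libraries (edgeR adjusted p = 0.00597). The ratio of Ccr2 to Ly6c2 counts was 0.770, 0.570 and 0.446 in controls and 0.511, 0.251 and 0.35 in Sms-OE libraries. With offsets for transcript length and GC 1 gene of the list fell and 3 rose, and the calls of Ly6a (-0.23, edgeR adjusted p = 0.236) and Ly6i (-0.36, edgeR adjusted p = 0.154) were lost. Ccr2 passed with those offsets (-0.94, edgeR adjusted p = 0.000818), and was -0.57 without both haemoglobin-rich libraries.

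Other genes known for patrolling monocytes numbered 20, of which 4 rose, 4 fell and 12 did not pass, with a median log2 fold change of 0.04. Nr4a1, the receptor these cells depend on and also an immediate early gene of many cells, was 1050, 1070 and 1030 CPM in controls and 1480, 1510 and 1530 in Sms-OE libraries, 1.43-fold higher (edgeR adjusted p = 0.00322). Its values were tight within each group. Dusp16, a phosphatase of stress kinases, rose 2.31-fold (93.0 to 215 CPM, edgeR adjusted p = 0.000194), and Pou2f2, a transcription factor also of B cells, rose 2.23-fold (14.7 to 32.9 CPM, edgeR adjusted p = 0.000961). Bcl2a1d, a survival gene with near-identical copies whose counts are uncertain, fell 1.49-fold (210 to 141 CPM, edgeR adjusted p = 0.00208). The call of Bcl2a1d was lost with offsets for length and GC (-0.19, edgeR adjusted p = 0.149). Ear2 fell most in the list, 3.93-fold, from 129 to 157 CPM in controls to 19.9 to 55.0 in Sms-OE libraries (edgeR adjusted p = 0.0105). Fabp4 (9.14 to 4.85 CPM, edgeR adjusted p = 0.00518) and Fcgr4 (282 to 234 CPM, edgeR adjusted p = 0.0498) fell too. Hes1 rose (12.9 to 26.4 CPM, edgeR adjusted p = 0.0086). Ear2, Fabp4, Fcgr4 and Hes1 are named here after their values were seen, and their calls were not followed gene by gene through the alternative analyses. With any 1 library left out, 2 to 5 genes of the list fell and 4 to 5 rose.

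Of 14 transcription factors of monocyte development 4 rose and 1 fell, with a median log2 fold change of 0.13. Klf4, which patrolling and inflammatory monocytes both need, was 72.8, 70.9 and 54.6 CPM in controls and 123, 108 and 131 in Sms-OE libraries, 1.83-fold higher (edgeR adjusted p = 0.00114). Zeb2, a repressor that helps keep myeloid identity, rose 1.40-fold (151 to 212 CPM, edgeR adjusted p = 0.00452), a call lost with offsets for length and GC (edgeR adjusted p = 0.164). Its log2 fold change was 0.49, and 0.39 without both haemoglobin-rich libraries. Irf8, which drives monocyte and dendritic cell fates, was 216, 206 and 189 CPM against 139, 132 and 146, 1.46-fold lower (edgeR adjusted p = 0.0021). No library of either group overlapped the other in these 3 genes. Dendritic cell markers, of cells rich in Irf8, summed to 86.5 to 111 CPM in controls and 64.2 to 73.9 in Sms-OE libraries, and their part in the Irf8 fall was not tested. With any 1 library left out, 4 to 5 of the 14 rose and 1 fell.

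Of 18 trafficking ligands and receptors 3 rose and 2 fell, with a median of 0.06. Over all genes 12.5% were called higher and 14.3% lower. Lists share genes, so their counts are not independent. Ccr2 and Cx3cr1, given above, are counted here, Itga4 again among the fibronectin partners, and Nr4a1 among both patrolling genes and transcription factors. The CCR2 ligand Ccl12 was 10.5, 11.9 and 14.8 CPM in controls and 5.69, 4.44 and 2.86 in Sms-OE libraries, 2.86-fold lower (edgeR adjusted p = 0.00223). The other CCR2 ligands in the list, Ccl2 (37.8 CPM in controls, log2 fold change 0.17, edgeR adjusted p = 0.493) and Ccl7 (16.4 CPM, 0.05, edgeR adjusted p = 0.874), did not pass. Cx3cl1, the ligand of Cx3cr1, was 8.72, 8.11 and 5.58 CPM against 5.27, 5.04 and 4.33 and missed the threshold (log2 fold change -0.62, edgeR adjusted p = 0.0528). Ccl2, Ccl7 and Cx3cl1 are named here as the partners of receptors above, after their values were seen. The integrin chain Itgam, or CD11b, rose 1.52-fold (976 to 1480 CPM, edgeR adjusted p = 0.00331). Itga4, which binds fibronectin and VCAM-1, rose 1.40-fold (371 to 518 CPM, edgeR adjusted p = 0.0181). This call was lost with offsets for length and GC and without control replicate 1, control replicate 3 or Sms-OE replicate 3 (edgeR adjusted p of 0.0605 to 0.352).

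Among partners of fibronectin and versican 5 of 16 tested genes rose and 0 fell, with a median log2 fold change of 0.26. Itgav, an integrin chain, rose from 46.5 to 62.9 CPM ( edgeR adjusted p = 0.00672) and Itga5, the chain of the main fibronectin receptor, went from 58.6 to 75.1 CPM (log2 fold change 0.36, edgeR adjusted p = 0.0416). Has1, a hyaluronan synthase, was at very low levels, 0.134, 0.215 and 0.104 CPM against 1.10, 1.12 and 1.06 (edgeR adjusted p = 0.00296). The count of 5 fell to 2 with offsets for length and GC, and ran from 2 to 5 with any 1 library left out. Offsets ended the calls of Itgav (edgeR adjusted p = 0.0796) and Itga5 (edgeR adjusted p = 0.238). The call of Itga5 was also lost without control replicate 1, 2 or 3 or Sms-OE replicate 1 or 3 (edgeR adjusted p of 0.0617 to 0.151).

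Of the Ly6 family 8 of 11 genes were tested, 0 rose and 3 fell, with a median log2 fold change of -0.35. Beside Ly6a and Ly6i, already described, Ly6e went from 1440 to 1130 CPM (-0.35, edgeR adjusted p = 0.0316). The call of Ly6e was lost without control replicate 1, 2 or 3 or Sms-OE replicate 1 (edgeR adjusted p of 0.0591 to 0.112). With offsets for length and GC 0 of the 8 fell, and the family's genes are alike in sequence, so that reads can be split among them. The chitinase-like genes had 5 of 9 members tested, and 1 of them, Chid1, fell, from 25.4 to 16.9 CPM (log2 fold change -0.58, edgeR adjusted p = 0.00395). Without both haemoglobin-rich libraries the log2 fold change of Chid1 was -0.51. Of the Trem cluster on chromosome 17, which holds Treml4, 2 of 6 rose: Trem1, an amplifier of myeloid inflammation, from 379 to 596 CPM (0.65, edgeR adjusted p = 0.00176), and Trem2, a lipid receptor of macrophages, from 13.5 to 19.8 CPM (0.56, edgeR adjusted p = 0.0174). The call of Trem2 was lost without control replicate 1 (edgeR adjusted p = 0.0673) or Sms-OE replicate 1 (edgeR adjusted p = 0.0581).

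Of 9 renin-angiotensin genes 3 were tested, Ace among them. Lnpep, a cell-surface aminopeptidase that cleaves angiotensin peptides, was 259, 258 and 249 CPM in controls and 382, 363 and 390 in Sms-OE libraries (edgeR adjusted p = 0.00145), a call lost with offsets for length and GC (edgeR adjusted p = 0.0929). Agt, the precursor made by hepatocytes, was 3.44, 6.66 and 5.75 CPM against 0.986, 1.12 and 0.290, 6.59-fold lower (edgeR adjusted p = 0.00233). The hepatocyte and hepatoma markers summed to less in the same libraries, as given above for Fn1, and their part in the Agt fall was not tested.

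**Figure D4:**
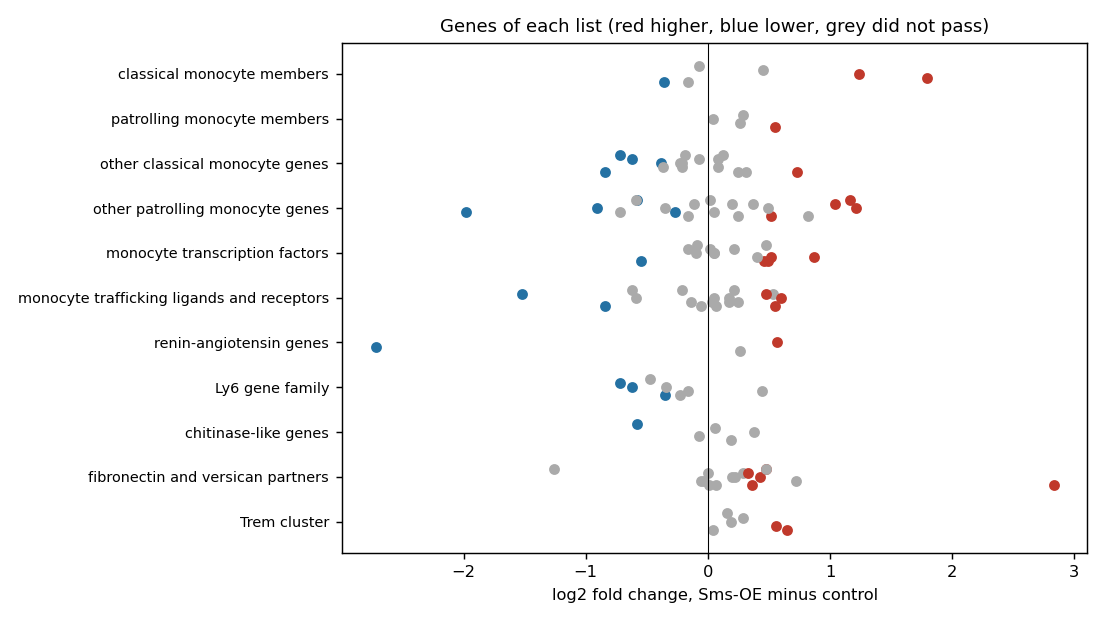
Fitted log2 fold change of every tested gene in the marker groups and the related lists, Sms-OE minus control, 1 point a gene, red where higher, blue where lower and grey where the test was not passed. The classical markers reach from -0.36 to 1.79, and the other classical genes lie mostly below 0, with a median of -0.20.

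For 8 markers the gene whose log2 CPM, centred over the 6 libraries, lay nearest was sought among 9652 genes. The nearest to F13a1 was Nt5e, which encodes the ectoenzyme CD73, with a root mean square difference of 0.16, and it went from 10.4 to 31.1 CPM. Nearest to Fn1 was the cationic amino acid transporter Slc7a2 (0.13), to Plac8 the nucleotide phosphodiesterase Cnp (0.04) and to Cx3cr1 the Rab activator Dennd4c (0.06). Nearest to Ly6c2 was Cd24a (0.04), to Chil3 the mitochondrial leucyl-tRNA synthetase Lars2 (0.25), to Treml4 Dennd1a (0.04) and to Spn the lipid kinase Dgka (0.05). These are descriptions over 6 libraries. The median difference over the genes searched was 0.95 for F13a1, 0.92 for Chil3, 0.71 for Fn1 and 0.41 for Cx3cr1. It was smaller for Ly6c2 (0.35), Spn (0.28), Plac8 (0.27) and Treml4 (0.25), so that small differences there set a gene less apart.

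Other cell types' marker lists moved with the groups in part. Kupffer cell, platelet, stellate cell and fibroblast, and erythroid lists summed higher in every Sms-OE library than in any control, and dendritic cell and hepatocyte lists lower. Each had a two-sided exact permutation p of 0.1, the smallest that 3 against 3 allows, and an adjusted p of 0.2 over the 12 lists. The erythroid list ran from 43.2 to 189 CPM in controls and from 216 to 5040 in Sms-OE libraries. The macrophage, neutrophil, peritoneal macrophage, lymphocyte, eosinophil and mast cell, and endothelial lists overlapped between groups. Single genes within them still moved. Macrophage markers had 4 lower and 1 higher, endothelial markers 5 lower and 1 higher, neutrophil markers 3 higher and lymphocyte markers 1 higher. Neutrophil markers summed to 6980 to 9250 CPM in controls and 6310 to 7980 in Sms-OE libraries. Peritoneal macrophage markers summed to 552 to 1130 and 515 to 871, and eosinophil and mast cell markers to 369 to 711 and 456 to 701. Nearly all of the peritoneal sum was Alox15, at 527 to 1100 CPM in controls and 485 to 842 in Sms-OE libraries. Gata6, of the same list, was at most 1.08 CPM, so the sum is not a measure of peritoneal macrophages. No marker list had a gene at 0 in every library. The level of hepatocyte markers did not overlap between groups, so a fit that carries it as a covariate leaves little to test: it called 0 genes, with 1068 at an unadjusted p under 0.05 and a smallest adjusted p of 0.145 in edgeR.

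**Figure D5:**
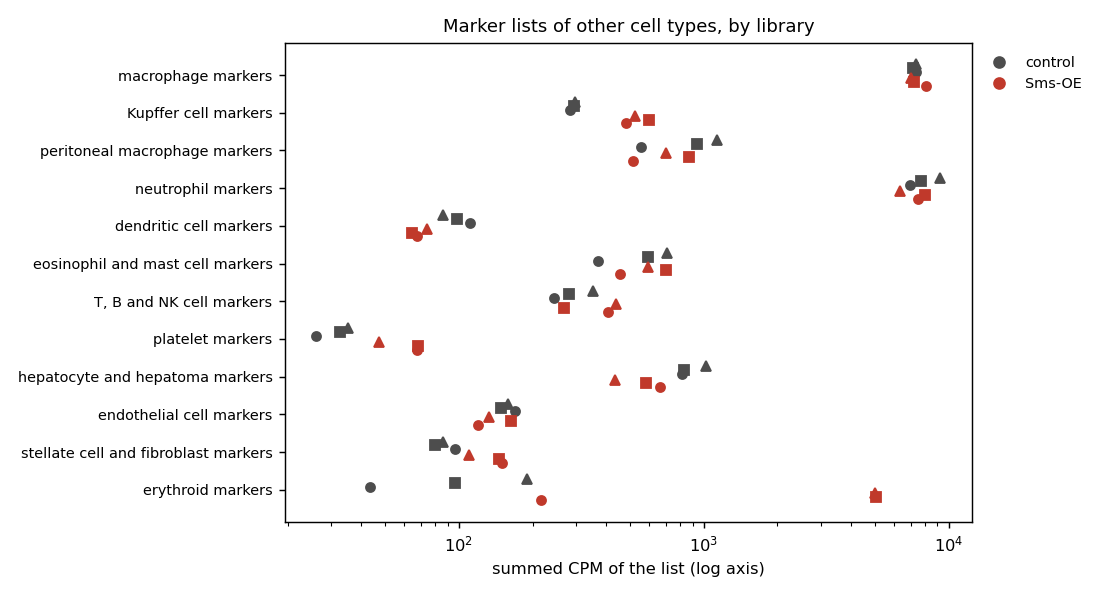
Summed CPM of each marker list of other cell types in each library, on a log axis, controls in grey and Sms-OE in red. The macrophage and neutrophil lists are both near the top in every library, and the erythroid list reaches 5040 in Sms-OE replicate 2.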

How the data were processed

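Whole-transcriptome RNA was read from F4/80+ cells in 3 control and 3 Sms-OE libraries, grouped by sample titles. Per the labels' protocols, oligo(dT)-selected RNA was made into libraries with dUTP and UDG, which marks strand. The submitters' processing notes name HISAT2 2.2.1 and StringTie 2.1.6, after cutadapt 1.9 and FastQC 0.11.9, and also DESeq2. Build, annotation and strand setting: not given in the sources used here. The authors deposited whole-number estimated counts, 1 row a gene, not normalized, and how they were made is not stated, so counting error is uncertain. Rows were matched to GENCODE M21 (GRCm38) by Ensembl identifier, 55141 of 55401. The 260 others held at most 0.0125% of a library.

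The markers and gene lists were chosen with earlier results of these data known. The test was edgeR 4.0.16 in R 4.3.3: filterByExpr, TMM, robust glmQLFit and glmQLFTest on all 6 libraries, with Benjamini-Hochberg adjustment over 18277 genes and a threshold of 0.05. CPM use TMM-scaled sizes, and log2 fold changes are Sms-OE minus control with a prior count of 0.125. Standard errors derive from the F statistic. Sums of marker lists were tested two-sided over all 20 assignments of libraries (exact permutation). The steps were tested on simulated counts.

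Named were all 10 markers, up to 4 genes of each list past the threshold by smallest p, and the nearest gene by centred log2 CPM (prior count 2) for markers that passed, with a mean CPM of at least 5, or did not, with at least 50. Genes outside this rule are marked in the text or are list markers given as levels. No 2 libraries shared more than 3.65% of their values, so all 6 counted as samples.

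Alternatives were other scalings (upper-quartile, library size alone, size factors of DESeq2 1.42.0), other filters (none, or 3 libraries with a CPM of 1 or more), and other tests (limma-voom 3.58.1 with quality weights, the DESeq2 Wald test, edgeR with no robust step). Further ones were a replicate block, offsets for length and GC, a hepatocyte marker covariate, no mitochondrial and haemoglobin rows, and each library left out. Removal of both haemoglobin-rich libraries was added after seeing the data, and left 1 Sms-OE library, so no test is given for it. Lengths were taken from the longest protein-coding transcript, a choice made after seeing results, because the longest Ly6c2 transcript is not protein-coding. The motif letters were chosen with the results known.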

Additional observations from a re-analysis of the deposited data

How the results depend on the processing

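Among the markers, F13a1 and Fn1 stayed above 0 in all 18 alternatives other than the hepatocyte covariate. They passed in each of these that kept more than 1 Sms-OE library. The covariate gave 1.73 for F13a1 and 2.84 for Fn1, and no call. Leaving out 1 library gave log2 fold changes of 1.65 to 1.87 for F13a1 and 0.84 to 1.45 for Fn1. Plac8 passed in 9 of 19 alternatives. The tallies of 19 include the setting that left 1 Sms-OE library. The Plac8 call was lost with upper-quartile factors (-0.32), library size alone (-0.29), offsets for length and GC (-0.02) and the covariate (-0.65). Plac8 was -0.48 without both haemoglobin-rich libraries, and ran from -0.45 to -0.31 over left-out libraries. Cx3cr1 passed in 13 of 19, was 0.49 with the covariate, and ran from 0.37 to 0.71 over left-out libraries. Spn passed with upper-quartile factors (0.32), library size alone (0.36), a CPM of at least 1 in 3 libraries (0.32), DESeq2 (0.31) and voom (0.30), and ran from 0.21 to 0.36 over left-out libraries. Vcan passed with DESeq2 (0.47), voom (0.52) and without control replicate 3, was 0.05 with offsets, and ran from 0.35 to 0.62 over left-out libraries.

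The sign of 4 markers that did not pass was unstable. Ly6c2 was 0.24 with offsets and 0.66 with the covariate, and ran from -0.34 to 0.04 over left-out libraries. Chil3 was 0.20 and 4.56, and ran from -0.93 to 0.38. Ace was -0.50 and Treml4 -0.25 with the covariate, and Treml4 ran from -0.03 to 0.13. With the covariate Ccl12 was 0.72, Itga4 0.00 and Agt 0.97. Of the nearest genes, Cd24a was 0.15 with offsets and 0.62 with the covariate (-0.33 to 0.07 over left-out libraries). Lars2 was 5.63 with the covariate and 0.05 without both haemoglobin-rich libraries (-0.70 to 0.40), and Dennd1a was -0.09 with offsets and -0.21 with the covariate (-0.02 to 0.12).

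The covariate fit called 0 genes. Over left-out libraries 1366 to 2015 genes were higher and 1684 to 2473 lower, without both haemoglobin-rich libraries 690 and 694, and with offsets 1741 were lower. The classical markers called higher numbered 2 to 3 and lower 0 to 1 over left-out libraries, with 0 lower under upper-quartile factors, library size alone and offsets. Patrolling markers called higher numbered 0 to 2, and 2 under upper-quartile factors, library size alone, the CPM filter, DESeq2 and voom. Other classical genes called higher numbered 1 to 2 over left-out libraries, 2 with library size alone, the CPM filter, DESeq2 and voom, and 3 with offsets, where 1 was lower. Other patrolling genes called lower numbered 2 to 5 over left-out libraries, and 2 with offsets. With offsets 4 trafficking genes and 0 Ly6 genes were lower, and 0 renin-angiotensin genes and 2 matrix partners were higher. Matrix partners called higher numbered 2 to 5 over left-out libraries and 3 with no low-count filter. Trafficking genes higher numbered 1 to 3, Trem genes 1 to 2 and chitinase-like genes 0 to 1 over left-out libraries. The difference in summed macrophage markers ran from -192 to 364 CPM and that of eosinophil and mast cell markers from -70.8 to 99.6. The cause of these shifts was not tested.

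Replicate numbers are shared between the groups, but same-numbered libraries deviated together with correlations of 0.19, 0.05 and -0.06, so the numbers were not taken to pair samples. With the replicate block F13a1 was 1.79, Fn1 1.16, Plac8 -0.36 and Cx3cr1 0.54, and no marker's call changed. With 3 libraries a group the intervals of Chil3 and Ly6c2 were wide, and the error of the estimated counts themselves is not known.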
